A study of Mus musculus with 16 samples.

Results

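The suppressors of cytokine signalling and both forms of STAT5 were followed in RNA from double-positive (DP) thymocytes of mice, the CD4+CD8+ stage of selection on the T cell receptor. The 10 genes are Cish, Socs1, Socs2, Socs3, Socs4, Socs5, Socs6, Socs7, Stat5a and Stat5b. Each was found by its Ensembl identifier, and all 10 were present among the 55335 identifiers listed for the libraries with a stated age and among the 54532 listed for the others. DP cells were sorted by flow cytometry and sequenced in 16 libraries. The first set holds 4 libraries of old WT mice, 3 of young mice labelled METTL3 KO and 3 of young WT mice. The other set holds 3 libraries labelled METTL3 KO and 3 labelled WT, with no age. The labels give no strain, sex, age in numbers, deleted region or Cre driver, and they do not say whether replicates came from separate animals, so p-values measure the spread between these libraries, which may be technical. METTL3 is the enzyme that places N6-methyladenosine (m6A) on messenger RNA.

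Cytokine receptors of the type I and II families carry Janus kinases (JAKs) on their tails, and the JAKs phosphorylate STAT proteins that then enter the nucleus. CIS (encoded by Cish) and the SOCS proteins bind the active receptor or kinase through an SH2 domain and recruit a ubiquitin ligase through a C-terminal SOCS box. Several of them are themselves induced by STATs, which closes a feedback loop. In mice, interleukin-7 signals through STAT5 to keep early and mature T cells alive, its receptor is low on DP cells, and SOCS1 restrains cytokine signalling at that stage. In naive T cells of mice lacking Mettl3, Socs1, Socs3 and Cish mRNAs have been reported as m6A targets that decay more slowly, which is the question the KO comparisons bear on here.

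Each library with an age held 9781368 to 10307780 gene counts. Without an age, the KO-labelled libraries held 10575795 to 13740694 and the WT libraries 15927134 to 16167074. Entries counted outside genes made up 47.5% to 51.2% of the first set, 11.9% to 15.03% of the KO-labelled libraries without an age and 7.23% to 7.60% of WT without an age. Entries not aligned made up 0.58% to 0.83% of the first set and 50.5% to 52.2% of the other. Without an age, 27.3% to 29.5% of entries fell in genes in the KO-labelled libraries and 37.0% to 37.3% in WT. Because of such differences, levels were compared within each set. Mettl3 had 62.1 to 64.5 CPM (counts scaled to a common library size) in the libraries labelled young KO and 59.5 to 65.99 CPM in young WT, a log2 difference of 0.00 ± 0.08 (SE). It had 27.0 to 38.6 CPM in the KO-labelled libraries without an age and 45.1 to 54.5 CPM in WT without an age (-0.58 ± 0.18, adjusted p = 0.0189), against a lower quartile of -0.61 over all genes of that comparison. This is a partial check, since the deleted region is not in the labels and the 3′ end of Mettl3 overlaps Tox4, on the opposite strand. DP markers were present in all libraries, at a summed level of 15110 to 20880 CPM outside the KO-labelled libraries without an age and of 10410 to 13000 CPM in those.

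On mm10 the STAT5 genes are neighbours on chromosome 11, Stat5b (ENSMUSG00000020919) at chr11:100780731-100850724 on the minus strand and Stat5a (ENSMUSG00000004043) at chr11:100859351-100885169 on the plus strand. Socs3 (ENSMUSG00000053113, chr11:117966079-117970047, minus) and Socs7 (ENSMUSG00000038485, chr11:97362551-97398542, plus) lie on the same chromosome. The others are Cish (ENSMUSG00000032578, chr9:107296026-107302784, plus), Socs1 (ENSMUSG00000038037, chr16:10782240-10785536, minus), Socs2 (ENSMUSG00000020027, chr10:95385362-95417180, minus), Socs4 (ENSMUSG00000048379, chr14:47276931-47296102, plus), Socs5 (ENSMUSG00000037104, chr17:87107679-87137839, plus) and Socs6 (ENSMUSG00000056153, chromosome 18).

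Within a library, levels of different genes were compared as CPM per kilobase of exon, with all annotated exons of a gene merged. For Stat5a the merged exons held 7133 bases and the longest transcript 3958, while Socs1 had 2908 by both. The order of such genes, and of others such as Socs6 (11349 and 6036 bases), therefore depends on the length used. Stat5b had the highest mean in each of the 5 groups, at 100.9 ± 11.95 in old WT (SD, n = 4), a range of 98.8 to 100.6 in young KO and 99.6 ± 4.24 CPM per kilobase in young WT (SD, n = 3). On this scale Socs1 was next in every group, with 28.0 ± 5.81 in old WT, 20.6 ± 2.08 in young KO and 19.9 ± 0.697 CPM per kilobase in young WT. In all 3 groups the ranges of Socs1 and the gene ranked after it overlapped, which was Stat5a in both WT groups and Socs4 in young KO. Socs3, Socs7 and Socs6 followed at 3.73 to 11.2 CPM per kilobase in all 3 groups. Socs5, Cish and Socs2 closed the order in that sequence, with non-overlapping ranges and means of 1.25 CPM per kilobase or less. In the set without an age, Stat5b (66.7 ± 9.66) and Socs1 (61.7 ± 9.33 CPM per kilobase) overlapped in KO, whereas in WT Stat5b stood apart at 122 ± 4.91 and Socs1 had 67.4 ± 9.86 CPM per kilobase (SD, n = 3 each). Socs3 ranked above Stat5a, Socs4 and Socs7 in KO of that set, with a range that overlapped Stat5a, and below Stat5a and Socs4 in WT. The last place was held by Cish in KO and by Socs2 in WT, where the ranges of these genes overlapped.

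**Figure D1:**
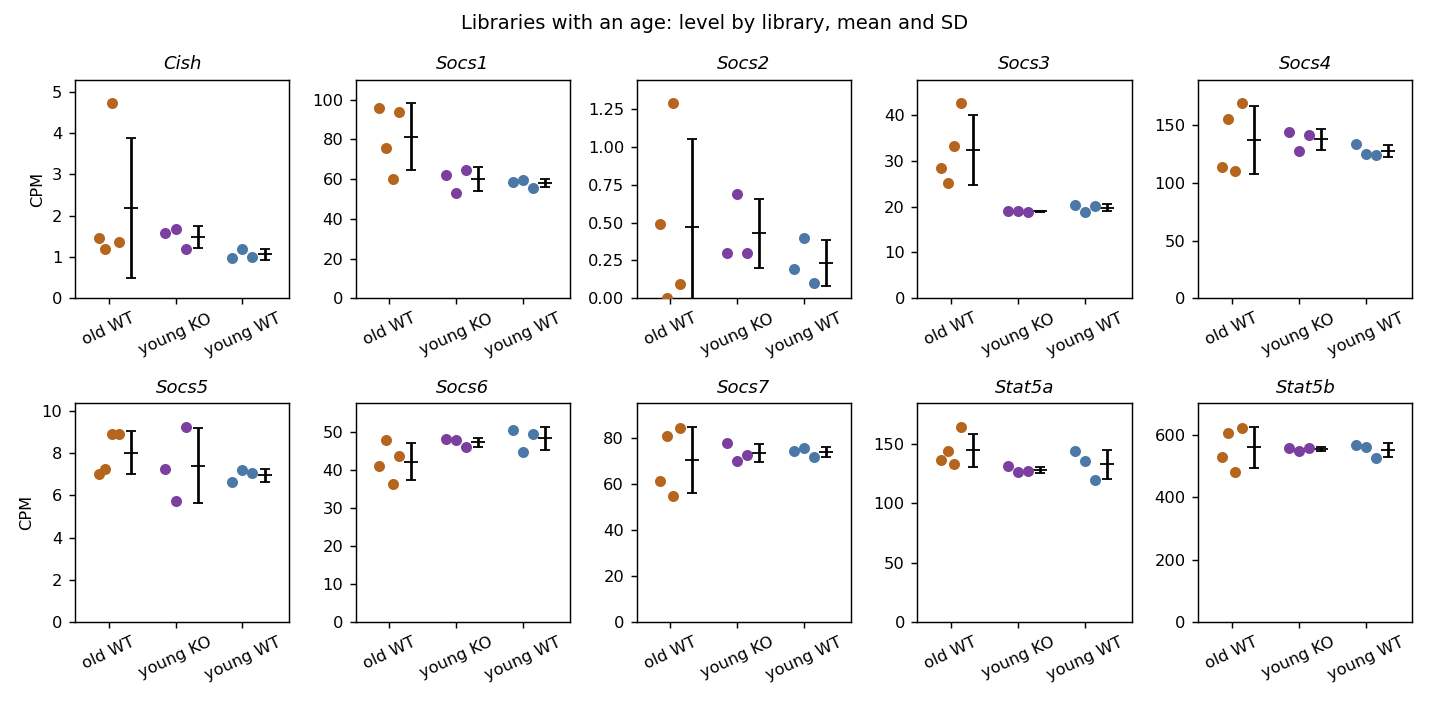
Level of each of the 10 genes in CPM (vertical axes, from 0, each gene on its own scale) in old WT, young KO-labelled and young WT libraries. Points are libraries, and the bar beside them gives the mean and SD (for Socs2 in old WT the lower end of the SD lies below 0 and is not drawn). All 4 old WT points of Socs3 and Socs1 lie above their young WT points, and 1 old WT library has 4.73 CPM of Cish.

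The largest log2 differences between old and young WT among the genes tested were those of Cish, Socs3 and Socs1, which were above 0 and did not pass the test, and that of Cish rested on 1 library (0.33 without it). Stat5b had the smallest. Of the 9 genes tested, 0 were called at an adjusted p below 0.05, where 0.253% of all 14228 tested genes were called by edgeR's quasi-likelihood test with Benjamini-Hochberg adjustment (36 genes). DESeq2 called 1 of the 9 and 153 of all 14228 genes, and limma-voom 0 of the 9 and 35 of all. At an unadjusted p below 0.05 there were 2 of the 9, against 12.1% of all genes. Log2 differences were above 0 for 7 of 9, with a median of 0.12, against 51.1% and a median of 0.0063 for all genes. Socs2 was too low to be tested.

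Socs3, which binds gp130-type receptors and blocks JAK activity, had 28.4, 25.1, 33.2 and 42.6 CPM in old WT, against 20.3, 18.9 and 20.1 CPM in young WT. Every old WT library was above every young WT library, and the fourth old WT library was highest. Genes whose groups did not overlap, with old WT higher, made up 5.65% of all genes tested. The log2 difference was 0.71 ± 0.16 (1.63-fold, adjusted p = 0.124). It passed the threshold with DESeq2 (0.70, adjusted p = 0.0131), without the filter on low counts (0.69, adjusted p = 0.0076) and without old WT replicate 2 (0.81, adjusted p = 0.0471). Over all alternatives its adjusted p ran from 0.0076 to 0.573.

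Socs1, which inhibits JAK1, JAK2 and TYK2 directly, had 95.9, 75.4, 60.1 and 93.8 CPM in old WT and 58.6, 59.3 and 55.5 CPM in young WT. The groups did not overlap, although the third old WT library exceeded the highest young WT library by under 1 CPM. The log2 difference was 0.49 ± 0.14 (1.41-fold, adjusted p = 0.248). Without old WT replicate 3 it was 0.61 and passed the threshold (adjusted p = 0.0259), while without young WT replicate 3 the adjusted p was 0.78, the ends of its range over all alternatives.

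Cish, whose product competes for STAT5 docking sites on receptors, was near the detection limit. It had 15, 12, 44 and 14 counts (1.47, 1.19, 4.73 and 1.35 CPM) in old WT, against 10, 12 and 10 counts (0.973, 1.20 and 1.01 CPM) in young WT. The third old WT library stood apart from the other 3, which lay between 1.19 and 1.47 CPM. The log2 difference was 1.02 ± 0.48 (adjusted p = 0.422), and 0.33 without that library (adjusted p = 0.735). Cish shares 479 bases of exon with Gm17041 and 261 with Gm17040 on the opposite strand, which had up to 15 and 10 counts in old WT, up to 5 and 1 in young WT and 0 in every library without an age. How strand was handled in counting is not given in the sources used here, so reads of these genes cannot be told apart from Cish reads.

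The promoters of Cish and Socs3 are shown because both are known STAT targets and of the windows searched only theirs held a STAT motif. RefSeq promoter windows of 300 bases (250 before to 50 after an annotated start, build GRCm38.p6) were searched for 6 of the 10 genes. These were Cish, Socs1, Socs3, Socs4, Stat5a and Stat5b, with 8 windows in all. No window of the other genes was searched, so whether their promoters hold a STAT motif is not known here. The motif TTCNNNGAA, its own reverse complement and the core that STAT5 binds, occurred in 8.30% of 32851 such windows, and 0.457% held at least 2 copies. Cish had 2 copies side by side at its annotated start, and Socs3 had 1 upstream. The windows of Socs1, Socs4, Stat5a and Stat5b held 0 matches. The same motif with 1 more base between its arms, also equal on both strands, was found in 0 of the 8 windows and in 6.95% of all. They read 5′ to 3′ on the gene's strand with matches in capitals (Cish, chr9:107296409-107296708, plus strand; Socs3, chr11:117969317-117969616, minus strand).
Cish: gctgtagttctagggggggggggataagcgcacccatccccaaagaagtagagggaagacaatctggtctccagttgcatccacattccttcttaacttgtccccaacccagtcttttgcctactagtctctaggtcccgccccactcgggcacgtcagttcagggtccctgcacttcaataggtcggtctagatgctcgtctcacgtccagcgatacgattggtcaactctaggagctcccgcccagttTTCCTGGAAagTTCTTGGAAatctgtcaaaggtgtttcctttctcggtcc
Socs3: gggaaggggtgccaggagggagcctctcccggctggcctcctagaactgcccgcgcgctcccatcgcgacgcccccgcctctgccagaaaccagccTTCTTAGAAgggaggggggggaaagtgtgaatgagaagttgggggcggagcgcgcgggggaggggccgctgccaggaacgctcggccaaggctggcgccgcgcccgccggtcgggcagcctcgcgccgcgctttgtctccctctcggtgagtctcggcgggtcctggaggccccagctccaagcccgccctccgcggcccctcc

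None of the remaining genes tested was called with age. Stat5b, the more abundant STAT5, had 530.1, 605, 480 and 622 CPM in old WT and 568, 562 and 525 CPM in young WT. Old WT libraries lay on both sides of the young ones, and the log2 difference was 0.020 with a 95% interval of -0.20 to 0.24. Stat5a had 136, 144, 133 and 164 CPM in old WT and 144, 135 and 119 CPM in young WT, and these overlapped (0.12, interval -0.082 to 0.33). Socs6, which binds the receptor tyrosine kinase KIT among others, had 41.1, 47.9, 36.4 and 43.7 CPM in old WT and 50.7, 44.9 and 49.5 CPM in young WT. Its groups overlapped too, and its log2 difference of -0.19 had an interval of -0.41 to 0.025. Socs4 (0.10 ± 0.14), Socs5 (0.20 ± 0.19) and Socs7 (-0.068 ± 0.13), of which Socs4 and Socs5 are known to act on the epidermal growth factor receptor, overlapped between groups. Socs2 had 5, 0, 12 and 1 counts in old WT and 2, 4 and 1 counts in young WT, and the third old WT library held most of them.

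The third old WT library also had the highest summed levels of several marker lists. B cell genes summed to 491 to 2136 CPM in old WT (13 genes, median 866) and to 442 to 498 CPM in young WT. MHC class II and dendritic genes summed to 59.6 to 938 CPM in old WT and 44.6 to 80.1 CPM in young WT (11 genes), and myeloid genes to 32.9 to 178 CPM in old WT and 25.6 to 27.9 CPM in young WT (12 genes). Mature single-positive thymocyte genes reached 960 CPM in that library, against 500.3 to 506 CPM in young WT (16 genes), and interferon-stimulated genes 678 CPM, against 322 to 349 CPM (19 genes). None of the 12 DP, 16 single-positive, 11 B cell, 8 MHC class II or 7 myeloid genes tested was called by edgeR, though DESeq2 called 5 of the B cell genes, 17 of these genes had an unadjusted p below 0.05, and all single-positive, B cell, MHC class II and myeloid genes tested were above 0. Among the interferon-stimulated genes 1 of 18 was called higher, Igtp, a GTPase induced by interferon-gamma (0.78 ± 0.13, adjusted p = 0.0224). The part of these cells in the levels of Socs3, Socs1 and Cish was not tested, apart from the values without that library, which were 0.70 for Socs3 (adjusted p = 0.15), 0.61 for Socs1 and 0.33 for Cish. In bulk RNA, fewer cells of a type and less RNA per cell cannot be told apart.

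The rest of the pathway was not called with age. Of 23 cytokine receptor genes tested 0 were called by edgeR or DESeq2, 10 had an unadjusted p below 0.05 and 22 were above 0 (median 0.29). Over all genes tested, 12.1% had an unadjusted p below 0.05 and 51.1% were above 0. The receptors summed to 1672 to 1956 CPM in old WT, highest in the third library, and to 1488 to 1617 CPM in young WT. The smallest p-values belonged to Il2rg, the common gamma chain (0.41 ± 0.13), and Il2ra (0.69 ± 0.23), both at an adjusted p of 0.296. Il7r, the interleukin-7 receptor chain, chosen after its values were seen, had 8.21 to 59.2 CPM in old WT and 9.05 to 11.02 CPM in young WT. All 12 STAT5 target genes tested were above 0 (median 0.37), 3 had an unadjusted p below 0.05 and 0 were called by edgeR or DESeq2. These targets summed to 2259 to 2437 CPM in old WT, highest in the first library, and to 1968 to 2135 CPM in young WT. Pim2, a survival kinase, was at 0.71 ± 0.26 and Mcl1, a guard against apoptosis, at 0.21 ± 0.089 (adjusted p = 0.346 and 0.381). None of 4 JAKs, 5 other STATs, 6 subunits of the SOCS box ligase and 15 other brakes on the pathway was called by edgeR or DESeq2, and 3 of these genes had an unadjusted p below 0.05. Jak3, which was not among those 3, had a log2 difference of 0.54 ± 0.27, at an adjusted p of 0.447. The m6A writers had 0 of 9 called, while among readers and erasers Igf2bp3 fell by 3.14 ± 0.18 on the log2 scale (adjusted p = 4.15e-06).

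The libraries labelled young KO could not be separated from young WT in any of the 9 genes tested, and they share the young WT libraries with the comparison above. Calls numbered 0 of 9, as for all 14228 genes (0.0% called by edgeR, 0.618% at an unadjusted p below 0.05, 0 called by DESeq2 and by limma-voom). The groups overlapped for all 10 genes, where 9.26% of all genes did not overlap. Socs3 had 19.2, 19.0 and 18.9 CPM in young KO and 20.3, 18.9 and 20.1 CPM in young WT. Young KO libraries lay within or near the young WT range, and the log2 difference was -0.060 with a 95% interval of -0.43 to 0.31. Socs1 had 62.2, 53.1 and 64.4 CPM in young KO and 58.6, 59.3 and 55.5 CPM in young WT (0.051, interval -0.28 to 0.38). Cish had 16, 17 and 12 counts in young KO and 10, 12 and 10 in young WT, a log2 difference of 0.48 whose interval of -0.66 to 1.62 includes a doubling. Stat5b, at 557, 547 and 557 CPM in young KO, had an interval of -0.23 to 0.24. Socs2 had 3, 7 and 3 counts in young KO and 2, 4 and 1 in young WT and was not tested. The libraries labelled young KO showed no loss of Mettl3, so these intervals describe the labels.

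**Figure D2:**
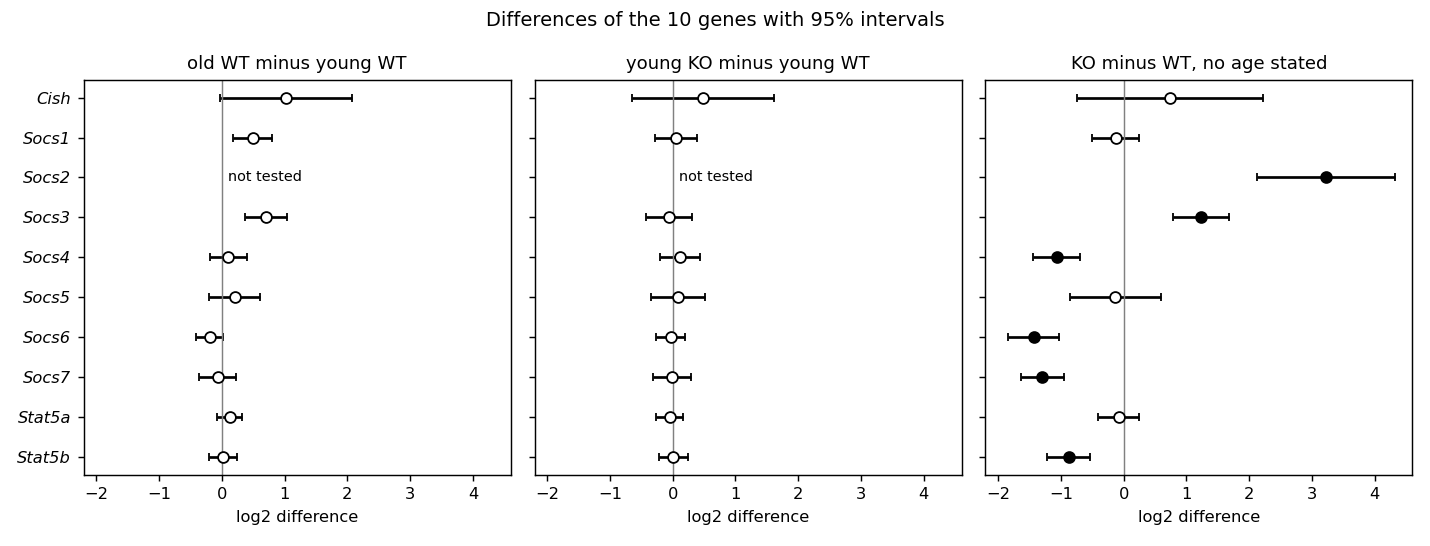
Log2 differences (horizontal axes) with 95% intervals from edgeR for each gene, in old WT against young WT, young KO-labelled against young WT, and KO-labelled against WT without an age. Filled points passed an adjusted p of 0.05, which 0 genes did in the first pair of panels and 6 genes did in the third.

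In the set without an age the genes parted. Socs2 and Socs3 were higher and Socs4, Socs6, Socs7 and Stat5b lower in the KO-labelled libraries, while Socs1, Socs5, Cish and Stat5a did not pass the test. That is 6 of 10 called, against 53.9% of all 16432 genes tested in this comparison (29.9% higher and 24.0% lower), so the share called is near the background. The members' median log2 difference was -0.13 and that of all genes 0.079. Socs2 passed the filter on low counts only through the KO-labelled libraries. All 6 called genes had groups that did not overlap, as did 63.8% of all genes (34.3% with KO higher and 29.5% with KO lower).

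**Figure D3:**
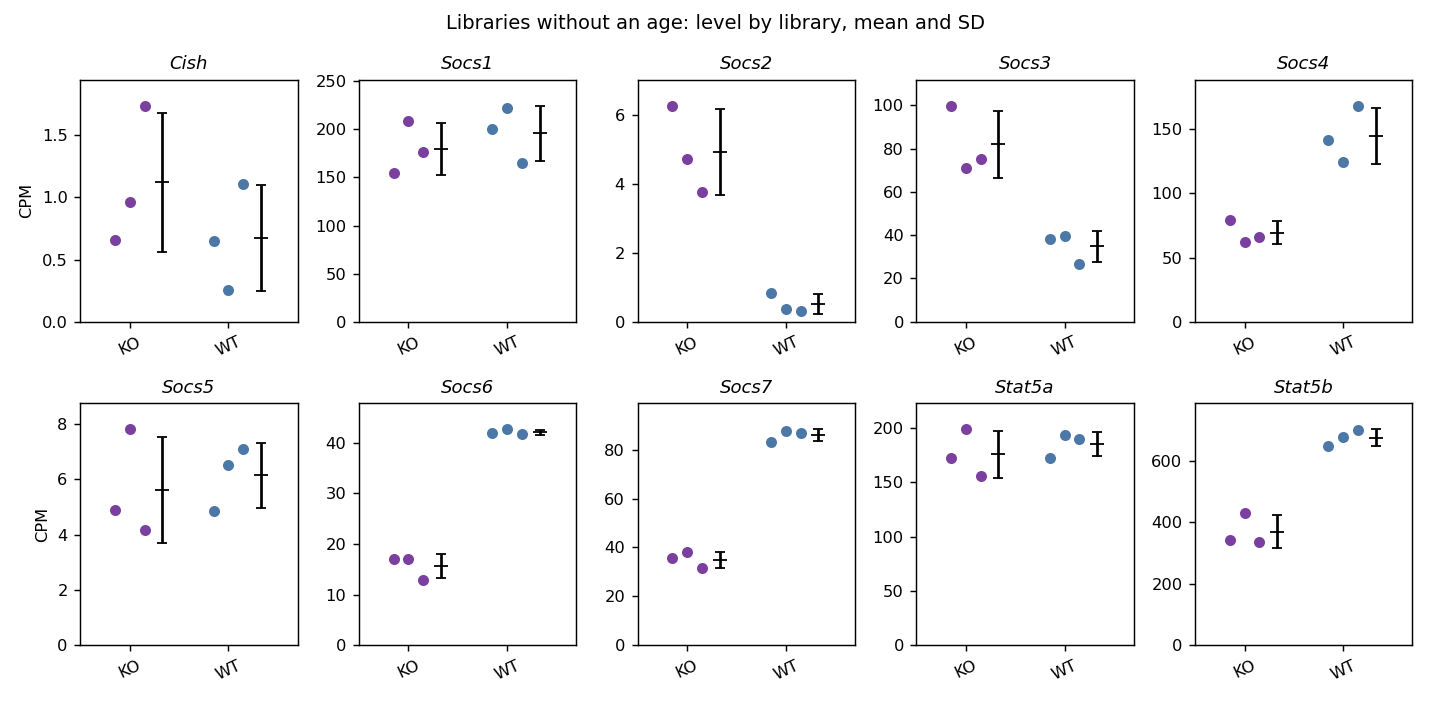
Level of each of the 10 genes in CPM (vertical axes, from 0, each gene on its own scale) in KO-labelled and WT libraries without a stated age. Points are libraries, and the bar beside them gives the mean and SD. KO points lie above WT for Socs2 and Socs3, below WT for Socs4, Socs6, Socs7 and Stat5b, and among them for the other 4.

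Stat5b had 342, 431 and 335 CPM in KO and 647, 678 and 701 CPM in WT. All KO libraries were lower, the second least so. The log2 difference was -0.87 ± 0.16 (1.83-fold lower, adjusted p = 0.000956). Its paralog and neighbour on chromosome 11, Stat5a, had 172, 199 and 156 CPM in KO and 172, 194 and 190 CPM in WT. These libraries overlapped, and the log2 difference was -0.077 ± 0.15, with an interval of -0.40 to 0.25 and a value of 0.027 when scaled by library size alone. Stat5a made up more of the STAT5 RNA per kilobase in KO (28.1%, 26.4% and 26.6%) than in WT (17.1%, 18.2% and 17.4%), or 27.0% ± 0.958 against 17.6% ± 0.531 (SD, n = 3 each). These shares use merged exon lengths, 7133 bases for Stat5a and 5539 for Stat5b, where the longest transcripts have 3958 and 5213. By transcript length the Stat5a share would be higher in every group. The shares carry no correction for trends with GC content or length. With an offset for both, the log2 differences were -0.25 for Stat5a and -0.65 for Stat5b. In the set with an age this share was 16.8% ± 0.878 in old WT (n = 4), 15.2% ± 0.198 in young KO and 15.7% ± 0.707 in young WT (n = 3 each). Stat5a shares 72 bases of exon with Stat3 on the opposite strand, and Stat3 had 124 CPM in KO and 197 CPM in WT on average.

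Of the inhibitors induced by STATs, Socs3 had 99.9, 71.1 and 75.04 CPM in KO and 38.3, 39.6 and 26.6 CPM in WT. Every KO library was higher, and the first most so. The log2 difference was 1.23 ± 0.20 (2.35-fold, adjusted p = 0.000597). Socs2, known as a brake on growth hormone signalling, had 76, 54 and 50 counts (6.28, 4.73 and 3.78 CPM) in KO and 13, 6 and 5 counts (0.849, 0.382 and 0.326 CPM) in WT. It was scarce in all 6 libraries, with every KO library above every WT library. The log2 difference was 3.23 ± 0.50 (9.36-fold, adjusted p = 0.000431), for a gene that passed the filter on low counts only through the KO libraries.

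Socs1 had 154, 208 and 176 CPM in KO and 201, 222 and 165 CPM in WT. The groups overlapped, and the log2 difference was -0.13 with an interval of -0.50 to 0.24. Cish had 8, 11 and 23 counts in KO and 10, 4 and 17 in WT, which overlapped as well. Its log2 difference of 0.74 had an interval of -0.75 to 2.23. It was 0.21 without KO replicate 3, 0.30 without WT replicate 2, 1.24 without WT replicate 3 and 1.36 with sex as a covariate. Of the trio reported in naive T cells, 1 was therefore called higher and the other two were not called in either direction.

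Among the less studied inhibitors, Socs6 had 17.0, 17.1 and 12.8 CPM in KO and 41.9, 42.6 and 41.7 CPM in WT. All WT libraries lay close together and well above KO, and the log2 difference was -1.43 ± 0.19 (2.69-fold lower, adjusted p = 0.000179). Socs7, known to bind adaptor proteins such as NCK, had 35.5, 38.0 and 31.5 CPM in KO and 83.2, 87.7 and 86.7 CPM in WT. It too was lower in each KO library, by -1.30 ± 0.16 on the log2 scale (2.45-fold lower, adjusted p = 0.000134). Socs4 had 79.3, 62.3 and 66.3 CPM in KO and 142, 125 and 168 CPM in WT, again with no overlap (-1.07 ± 0.17, 2.09-fold lower, adjusted p = 0.000472). Socs5 had 4.87, 7.79 and 4.16 CPM in KO and 4.83, 6.49 and 7.10 CPM in WT, which overlapped, and its log2 difference was -0.13 ± 0.33.

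**Figure D4:**
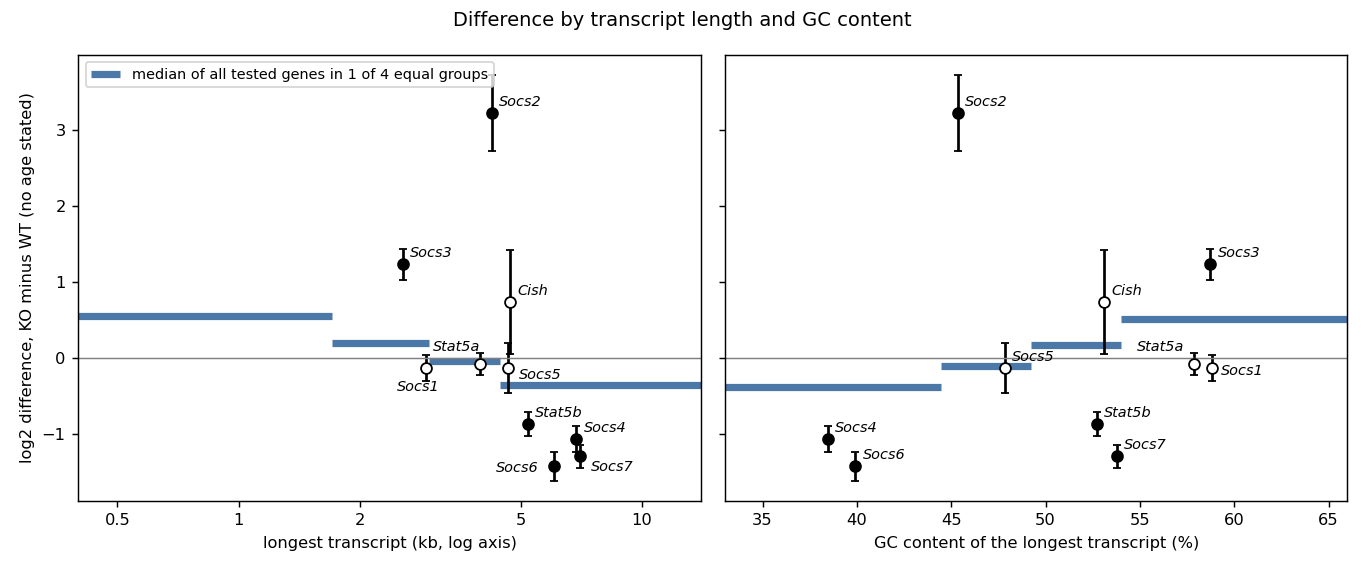
Log2 difference between KO-labelled and WT libraries without an age (vertical axis, points with SE, filled where called) against the longest transcript in kilobases (left, log axis) and its GC content in percent (right). Bars give the median of all tested genes in 4 equal groups by length or GC content. It is 0.55 for the shortest transcripts and -0.36 for the longest, and -0.38 at the lowest GC content and 0.51 at the highest.

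In this comparison the difference moved with transcript length and GC content over all genes. With genes in 4 equal groups by transcript length, the medians from short to long were 0.55, 0.20, -0.042 and -0.36. In 4 groups by GC content, low to high, they were -0.38, -0.11, 0.18 and 0.51. The 4 genes called lower have longest transcripts of 5.21 (Stat5b), 6.04 (Socs6), 6.88 (Socs4) and 7.01 kilobases (Socs7), all in the longest group, which also holds Socs5 (4.65) and Cish (4.70 kilobases), neither of them called. Of the genes called higher, Socs2 has 4.24 kilobases and 45.4% GC and Socs3 2.55 kilobases and 58.7% GC. Socs4 and Socs6 are the poorest in GC, at 38.5% and 39.9%, while Stat5b (52.7%) and Socs7 (53.8%) fall in the GC group whose median was 0.18. With an offset for GC content and length, an alternative chosen after the data were seen, Socs4 was at -0.23 and lost its call (adjusted p = 0.196) and Socs1, at 58.8% GC, was at -0.48 and called lower (adjusted p = 0.0145). The same offset gave -0.65 for Socs6, -1.04 for Socs7, -0.65 for Stat5b, 0.84 for Socs3 and 3.76 for Socs2, all 5 still called, and 0.32 for Socs5, 0.89 for Cish and -0.25 for Stat5a, not called. The STAT5 pair, at -0.077 for Stat5a and -0.87 for Stat5b without the offset, thus lay closer together with it. It moved the median of all genes to 0.19, against 0.079, and the share of calls that are higher to 65.9%, against 55.5%.

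**Figure D5:**
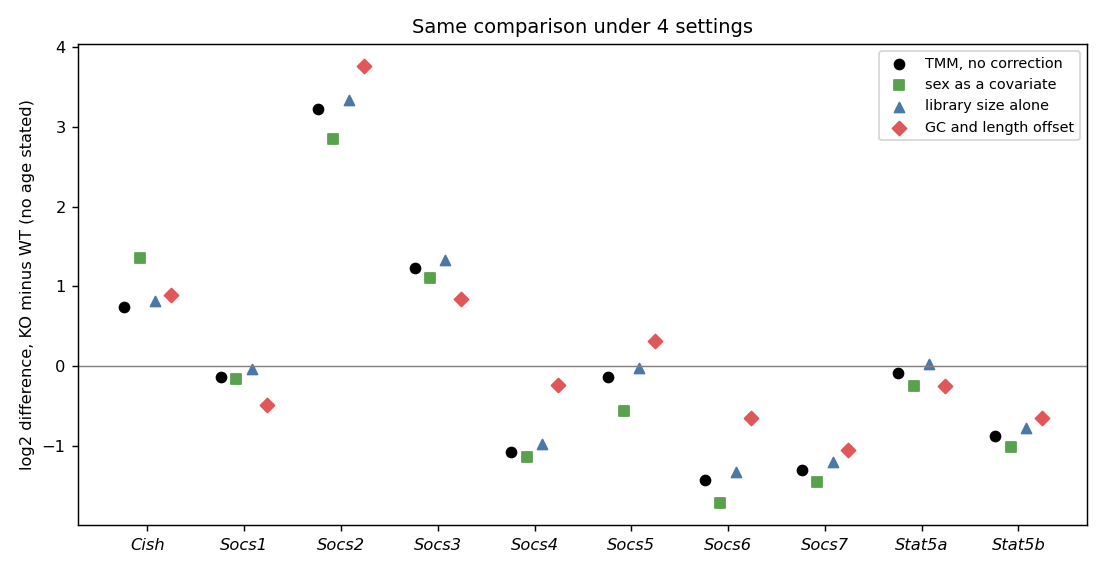
Log2 difference between KO-labelled and WT libraries without an age (vertical axis) for each gene under 4 settings, marked by shape. The offset for GC content and length brings Socs4 to -0.23 and Socs6 to -0.65, and Socs7, Stat5b, Socs3 and Socs2 keep their side of 0 under all 4.

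Other properties of the libraries moved with the label. By Xist and Y-linked genes the KO libraries were 2 female and 1 male and the WT libraries 3 male. With sex as a covariate the same 6 genes were called, between -1.71 for Socs6 and 2.85 for Socs2. As no WT library was female, the sex term came from the KO libraries alone. These values thus rest on the 1 male KO library against WT, and sex and label cannot be fully told apart. Over all genes, 24.0% were called lower and 29.9% higher. DP markers were lower in KO for 6 of 12, led by Rag1, a recombinase subunit (-2.44 ± 0.19), and including Tcf7 (-0.64 ± 0.18), and 0 were higher. B cell genes were higher for 10 of 11, including Ighm (0.65 ± 0.20), and summed to 759 to 1176 CPM in KO and 536 to 637 CPM in WT. MHC class II and dendritic genes were higher for 9 of 10, including Cd74 (1.35 ± 0.28), and summed to 120 to 218 CPM in KO and 41.0 to 69.6 CPM in WT. Early thymocyte genes were higher for 3 of 10 and lower for 1, Notch1, with 9 above 0 and a median of 1.00. They summed to 120 to 199.8 CPM in KO and 239 to 262 CPM in WT. These sums are weighted by Notch1, which had 81.6 CPM in KO and 212 CPM in WT on average. Interferon-stimulated genes were higher for 6 of 18 and lower for 1, and summed to 543 to 734 CPM in KO and 409 to 481 CPM in WT. Myeloid genes were higher for 4 of 9 and summed to 34.9 to 47.4 CPM in KO and 15.4 to 24.9 CPM in WT. Thymic epithelial genes, higher for 1 of 3, summed to 9.33 to 14.9 CPM in KO and 6.49 to 6.79 CPM in WT. Mature single-positive genes, higher for 1 and lower for 3 of 15, summed to 427 to 489.6 CPM in KO and 555 to 678 CPM in WT. Immediate-early genes reached 4080 CPM in the second KO library and 967 to 993 CPM in the others, against 1929 to 2281 CPM in WT. Of the 3 KO libraries, that one had the lowest Socs3 and Socs4 and the highest Socs1, Socs5, Socs7, Stat5a, Stat5b and, by under 1 CPM, Socs6. The part of these differences in the members' values was not tested.

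Other genes of the JAK-STAT pathway were called in both directions in this set, in which 29.9% of all genes were called higher and 24.0% lower. All 4 JAKs were called, with Jak1 (-1.20 ± 0.16) and Jak2 (-0.90 ± 0.16) lower and Jak3, the partner of the common gamma chain (0.78 ± 0.16), and Tyk2 (0.60 ± 0.14) higher in KO. Of 5 other STATs, Stat2, which acts in type I interferon signalling, was higher (1.09 ± 0.15) and Stat3 lower (-0.67 ± 0.15). Receptor genes were higher for 9 and lower for 4 of 27 tested, a share near that of all genes. Among them, Il6ra, Osmr, Csf2ra and Csf2rb, receptor chains for interleukin-6, oncostatin M and, for the last pair, GM-CSF, were higher (1.24 to 3.41), and Il6st, the gp130 chain through which interleukin-6 signals, was lower (-1.02 ± 0.21). In WT Osmr had 0.065 to 0.318 CPM and Csf2rb 0.065 to 0.764 CPM. Both passed the filter on low counts only through the KO libraries. Il7r was at 0.25 ± 0.37 and was not called.

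Other brakes on the pathway were lower for 9 of 15 and higher for 3, with a median of -0.48. Over all genes 24.0% were called lower and 29.9% higher, and 41.9% of the group with the longest transcripts was called lower. The gene lists were not summarised with the offset for GC content and length. Lower were the ubiquitin ligases Cbl (-1.85 ± 0.18) and Cblb (-0.84 ± 0.21), the phosphatases Ptpn11 (-1.31 ± 0.15) and Ptpn1 (-0.72 ± 0.17), the adaptor Sh2b3 (-0.87 ± 0.17) and the STAT inhibitor Pias1 (-0.85 ± 0.18). Higher were Pias4 (1.10 ± 0.17) and the phosphatase SHP-1, encoded by Ptpn6 (0.67 ± 0.17). Of 6 ligase subunits that serve the SOCS box, Cul5, the cullin scaffold, was lower (-0.51 ± 0.18) and the other 5 were not called. STAT5 target genes were higher for 4 of 12, Pim2 (0.85 ± 0.21), Bcl2 (0.64 ± 0.17), Lta (1.03 ± 0.35) and Osm (1.22 ± 0.44), and lower for 2, Mcl1 (-0.72 ± 0.16) and Bcl2l1 (-0.58 ± 0.17), again near the 53.9% called over all genes. Bcl2, Mcl1 and Bcl2l1 encode proteins that protect from apoptosis. The m6A writers were lower for 8 of 9, Rbm15b most (-1.21 ± 0.16), against 24.0% of all genes. Readers and erasers were lower for 6 and higher for 3 of 11. Lower among these were both erasers, Alkbh5 (-1.06 ± 0.14) and Fto (-0.89 ± 0.16), and Igf2bp1 was higher (4.02 ± 0.50). Igf2bp1 had 0.261 to 1.11 CPM in WT and passed the filter on low counts only through the KO libraries.

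For each called member, the nearest of 10197 genes across the 6 libraries were taken by root mean square difference of centred log2 CPM. With so many genes and few libraries, near matches were bound to occur, and no background distance was computed. Stat5b was most like Arhgap35 (0.0217) and Sh2b3 (0.0231), and Socs7 most like Snx27 (0.0391), Hs2st1 (0.0403) and Zfp110 (0.0544). Nearest to Socs4 were Kpna3 (0.0501), Mycbp2 and Smad5, and to Socs6 Man2a1 (0.0592), Zfp617 and Plk4. Socs3 (nearest 2010001A14Rik at 0.0965, then Ankle1 and Clpp) and Socs2 (nearest Rbms3 at 0.121, then Carmil1 and C130026I21Rik) had larger distances. The number of GGACT, a common form of the m6A consensus, was counted on the sense strand of the longest transcript. Socs1 held 1, Socs4 and Stat5a 2 each, Socs2 and Socs3 3 each, Socs5 and Socs6 4 each, Stat5b 6, Cish 7 and Socs7 9. Per kilobase this came to 0.291 for Socs4 at the lowest and 1.49 for Cish at the highest, against a median of 1.03 and quartiles of 0.641 and 1.49 over 12838 protein-coding genes. Among called genes, those that were higher had 0.707 (Socs2) and 1.18 (Socs3) matches per kilobase, within the 0.291 to 1.28 of those that were lower. A letter match is not a methylated site, and methylation was not measured in these libraries.

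Whether the KO difference was unequal in the sets was tested by an interaction over 12 libraries, as the difference without an age minus that of the young libraries. The 6 genes called without an age were called here too, against 36.9% of all 16557 genes. These calls are not separate support. The test reuses the libraries without an age, and the young KO differences of the tested members were -0.060 to 0.48. The share among genes already called without an age was not computed. The values were 2.53 ± 0.91 for Socs2 (adjusted p = 0.04) and 1.46 ± 0.24 for Socs3 (adjusted p = 0.000386), and -1.01 ± 0.17 for Socs4, -1.23 ± 0.18 for Socs6, -1.12 ± 0.15 for Socs7 and -0.71 ± 0.16 for Stat5b. The median over all genes was 0.14. Socs2 lost its call when any 1 of 8 libraries was left out (KO 1 or 2 and WT 2 or 3 without an age, young KO 1 or 3 and young WT 1 or 2), with values of 1.68 to 2.40 and adjusted p-values of 0.059 to 0.295, and the counts behind it in the young set were 3, 7 and 3 in KO and 2, 4 and 1 in WT. The interaction values were -0.011 for Socs1, -0.054 for Socs5, 0.43 for Cish and 0.14 for Stat5a, none of them called. Set and age, processing and any other property that separates the sets cannot be told apart.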

How the data were processed

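RNA from sorted DP thymocytes was measured as 1 raw read count per gene in each of 16 libraries, as the authors deposited it. HISAT2 2.0.5 and mm10 are named in the submitters' processing notes. How reads were assigned to genes (program, annotation, strand) is not given in the sources used here. Summary lines that name no gene were left out of library sizes. The test was that of edgeR 4.0.16, run in R 4.3.3 (filterByExpr, TMM, robust quasi-likelihood test, Benjamini-Hochberg adjustment over all genes tested, threshold 0.05, two-sided). Old WT and young KO were each compared with young WT in 1 fit of 10 libraries, KO with WT without an age in their own 6, and an interaction used 12. CPM are counts over TMM-scaled library size, and errors are SD between libraries or SE of the fit. Exons, lengths and coordinates came from GENCODE vM21 on mm10, promoters from RefSeq (GRCm38.p6).

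Alternatives were DESeq2 1.42.0 and its size factors, library size alone, no filter, 1 CPM in 3 libraries, limma-voom (limma 3.58.1), the replicate number as a block, sex as a covariate, the 2 groups alone, and each library left out. An offset for GC content and length was added after the data were seen. The fits were tested on simulated data. Groups came from the labels. The members and the pathway and marker lists were chosen with earlier results of these data known. All 10 members are named, with called pathway genes up to 8 a list or the 2 of smallest p, the 2 most abundant markers of a list where given, and the 3 genes most like each called member. Some genes this rule would name are not reported here. Other named genes were chosen after their values were seen. Tables and figures were made with Python 3.11.15, pandas 2.3.3 and matplotlib 3.10.9.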

Additional observations from a re-analysis of the deposited data

Results flagged for a closer look

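The third old WT library stood apart from the other 3 in Cish, with a gap to the nearest library of 0.922 of the group's range, above the critical value of Dixon's test for 4 samples. This was 1 of 10 genes examined in old WT, where chance gives about 1 in 20. That library held 44 Cish counts and the others 12 to 15.

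By the interaction test, which reuses the libraries without an age, 6 of the 10 genes differed between the sets in how KO-labelled libraries stood to WT. Over all 16557 genes tested, 36.9% were called. Without an age minus young, the KO difference was 2.53 for Socs2, 1.46 for Socs3, -1.01 for Socs4, -1.23 for Socs6, -1.12 for Socs7 and -0.71 for Stat5b. Socs2 passed the filter on low counts only through the KO libraries without an age, where it is high, and lost its call when any 1 of 8 of the 12 libraries was left out (1.68 to 2.40, adjusted p of 0.059 to 0.295 by edgeR).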

How the results depend on the processing

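Without an age, 6 genes were called under every alternative run, though with the offset for GC content and length Socs1 took the place of Socs4. Socs2, Socs3, Socs6, Socs7 and Stat5b kept direction and call there under all alternatives. With age, 1 gene (Socs3) was called without the filter on low counts and with DESeq2, and 0 to 1 with a library left out. All genes called with age numbered 36, against 85 without the filter, 153 with DESeq2, 61 with the replicate block, 11 with the 2 groups alone and 8 to 59 with a library left out (8 to 13 without one of young WT, 21 without young KO replicate 1, 59 without old WT replicate 4). For young KO, 1 gene of all was called without the filter, against 0. The direction of uncalled genes changed with age for Socs4 (-0.019) and Stat5b (-0.039) under the replicate block and for Stat5b (-0.029) under the offset. It changed for young KO Socs7 (0.0067) and for Socs5 without an age (0.32) under the offset, and for Stat5a without an age with library size alone (0.027). With a library left out, values with age ran from -0.023 to 0.20 for Socs4, -0.18 to 0.037 for Socs7 and -0.047 to 0.089 for Stat5b. For young KO they ran from -0.0042 to 0.13 for Socs1, -0.10 to 0.24 for Socs5, -0.082 to 0.0052 for Socs6, -0.053 to 0.025 for Socs7, -0.12 to 0.010 for Stat5a and -0.029 to 0.029 for Stat5b. For the interaction they ran from -0.33 to 0.065 for Socs1, -0.57 to 0.0060 for Socs5, -0.22 to 0.92 for Cish and -0.16 to 0.15 for Stat5a. There the median of all genes moved too, to between -0.014 and 0.23, against 0.14. Causes were not tested. Same-numbered libraries did not deviate together (r of -0.229 to 0.0869), so the numbers were not taken as pairs. The replicate block changed no member's call. Cish and Socs2 are limited by depth, with 0 to 76 counts a library.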
